A study of Mus musculus with 75 samples.

Results

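RelA is the NF-κB subunit whose C-terminal end carries the transactivation domains TA1 and TA2. Resting fibroblasts given RelA without these domains (RelA-dTAD) were compared here with resting fibroblasts given an empty vector (EV), to see which genes differ at rest when a RelA that lacks its transactivation domains is put back. The comparison rests on 4 of the 75 libraries of the study, taken by construct, time and set: RelA-dTAD and EV at 0 h, with 1 library of each in set 1 and 1 in set 2. All 75 libraries come from mouse embryonic fibroblasts of strain C57BL/6 that lack p53, c-Rel and RelA (p53-/-crel-/-rela-/-) and carry a pBABE-puro retrovirus, empty or encoding a form of RelA. The cells had spent a night in 0.5% calf serum. The 0 h libraries received no TNF, and the remaining times followed 10 ng/ml of TNF for 0.5, 1, 3 or 8 h. The 2 resting libraries with full-length RelA (RelA-WT) served as the reference level. The labels do not give the residues that RelA-dTAD lacks, nor whether libraries came from separate transductions, clones or cultures, so p-values measure the spread between these libraries, which may be technical.

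NF-κB proteins bind κB sites in DNA as dimers, and in resting cells most of them are held in the cytoplasm by IκB inhibitors until a signal such as TNF removes the inhibitor. The transactivation domains of RelA recruit the coactivators that raise transcription. Interferon-response genes are best known as targets of interferon signalling and of interferon regulatory factors, which bind the interferon-stimulated response element (ISRE). Promoters of MHC class I genes carry a κB site beside an ISRE.

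The libraries of set 1 held 4422396 to 6915919 counted reads (6226356 and 6847613 in the resting pair) and those of set 2 held 10440202 to 22908738 (11950062 and 18557058), so values of set 2 have the smaller counting error. Gm42418, an entry that collects ribosomal RNA reads, took 0.00133% to 0.00959% of reads in set 1 and 0.117% to 3.21% in set 2, and each set holds both groups. The 10 fibroblast markers summed to 39687 and 37360 CPM (counts scaled to a common library size) in EV and 40202 and 36794 in RelA-dTAD. Markers of other cell types summed to at most 5.58 CPM for macrophages, 53.05 for endothelium, 24.5 for epithelium, 3.27 for muscle and 249.9 for neural cells, and Adgre1, Tyrobp, Tie1, Krt5, Myod1, Myog, Myf5 and Sox10 were at 0 in all 4 libraries. No marker that entered the test passed it. Those entered were 3 of 9 for macrophages, 3 of 8 for endothelium, 4 of 8 for epithelium, 2 of 7 for muscle, 6 of 8 for neural cells and all 10 for fibroblasts. The filter on low counts removed the others, among them Vwf, at 0 and 0 CPM in EV and 1.23 and 0.57 in RelA-dTAD. In bulk RNA, more cells of a kind and more RNA per cell cannot be told apart.

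Rela, the gene put back, stood at 16.5 CPM in EV of set 1 and 15.4 in EV of set 2, and at 1124 and 1786 in RelA-dTAD. RelA-WT held 1144 and 1468. Every RelA-dTAD library was far above every EV library, with a log2 fold change of 6.53 ± 0.29 (SE) and an adjusted p of 4.37e-11. RelA-dTAD and RelA-WT differed in Rela by 0.13 ± 0.21 (adjusted p = 1.00), less than the spread between sets. Counts per gene (chr19:5637483-5648130, mm10) do not separate a truncated from a full-length transcript. The genes of the deleted c-Rel and p53 had reads in all 4 libraries, with Rel at 16.5 to 26.9 CPM and Trp53 at 31.0 to 38.3, and counts over a whole gene do not test a deletion. Adjusted p-values are from edgeR's quasi-likelihood test with Benjamini-Hochberg adjustment over 13665 genes, and "rose" and "fell" stand for an adjusted p under 0.05.

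At rest, RelA-dTAD cells differed from EV cells nearly only upward. There were 162 genes higher (1.19% of those tested) and 8 lower (0.0585%), and the median log2 fold change of all genes was 0.01. Of the higher genes 161 had more CPM in RelA-dTAD in both sets, and in 156 both RelA-dTAD libraries lay above both EV libraries. All 8 lower genes had less CPM in RelA-dTAD in both sets, and in 3 of them the groups did not overlap. The same libraries made the calls, so these counts describe the called genes and do not test them. Such shares over all tested genes were not computed. By size, 95 rose at least 2-fold and 28 at least 4-fold, against 1 and 0 that fell. Leaving out a library lowers the number: 77 rose without EV of set 1, 91 without RelA-dTAD of set 2, 106 without RelA-dTAD of set 1 and 124 without EV of set 2. Without the pairing of libraries by set, 87 genes rose and 1 fell. The plot of fold change against level shows where the 3 main lists lie.

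**Figure D1:**
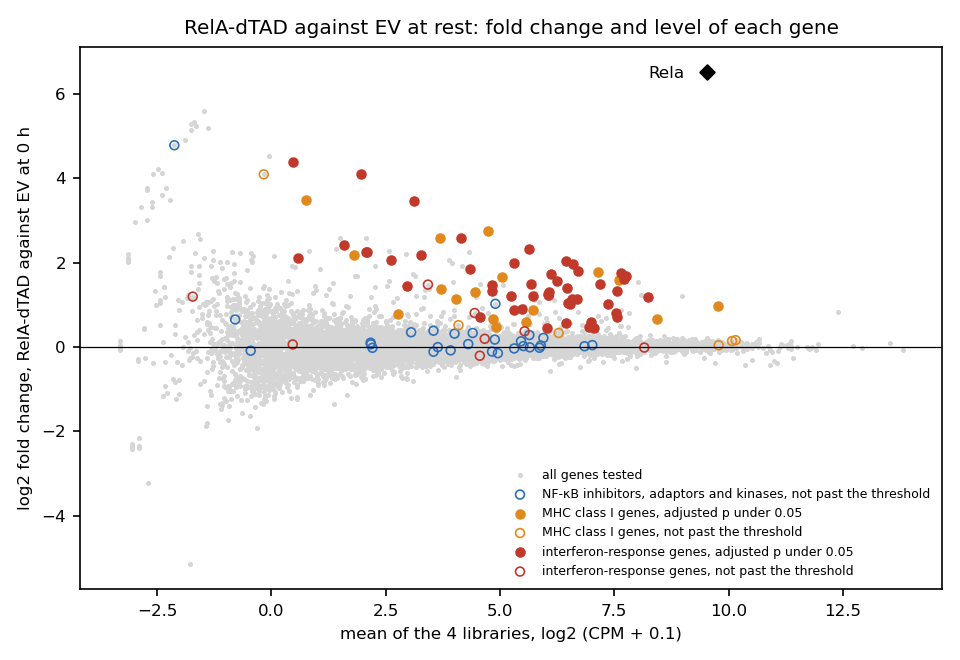
Each point is a gene, with its mean level over the 4 resting libraries on the horizontal axis (log2 of CPM + 0.1) and its log2 fold change of RelA-dTAD against EV on the vertical axis. Filled coloured points passed an adjusted p of 0.05: 48 interferon-response and 17 MHC class I genes lie above 0, while none of 28 NF-κB inhibitors, adaptors and kinases passed. Of all genes tested 1.19% were higher.

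Interferon-response genes were the group with most members among the risers: 48 of 57 tested rose and none fell, with a median log2 fold change of 1.32 against 0.01 over all genes. Oas1a, which encodes an enzyme that senses viral RNA, was at 1.91 and 6.81 CPM in EV (set 1, set 2) and at 35.6 and 26.1 in RelA-dTAD. The RelA-dTAD libraries lay well above the EV libraries in each set, a log2 fold change of 2.59 ± 0.32 (adjusted p = 8.33e-05). In fits of fewer libraries the Oas1a difference was 2.56 (adjusted p = 0.635, only the 4 libraries) and 2.55 (0.207, only the 8 libraries at 0 h). Its neighbour and close paralog Oas1g went from 0.27 and 0.48 CPM to 7.87 and 6.63 (4.11 ± 0.40, adjusted p = 3.62e-08), on 8 reads in EV in all. Slfn2, a Schlafen gene, went from 0.54 and 2.06 CPM to 14.2 and 17.8 (3.45 ± 0.43, adjusted p = 8.32e-05). Trim30a, a TRIM-family gene induced by interferon, went from 9.80 and 22.2 CPM to 75.9 and 91.1 (2.33 ± 0.25, adjusted p = 1.77e-05). Reads of the Oas1, Slfn, Gbp, Tgtp, Ifit, Trim30 and H2 families can be shared between near-identical copies, so the division of the rise among paralogs is uncertain.

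Further members of the list are described here beyond those the naming rule picks, after their values were seen. Among the enzymes that make the RNase L activator, Oas2 went from 2.31 and 4.36 CPM to 13.4 and 17.96 (2.19 ± 0.42) and Oas3, which had 2 reads in EV, stood at 3.09 and 1.92 CPM in RelA-dTAD. Oasl2, an OAS-like gene, went from 57.1 and 125.9 CPM to 310 and 314 (1.75 ± 0.31). For Oas2, Oas3 and Oasl2 each RelA-dTAD library lay above each EV library. Rsad2, which encodes viperin, went from 13.1 and 17.5 CPM to 71.6 and 56.5 (2.00 ± 0.36), and Bst2, the tetherin that holds budding virions at the membrane, from 71.4 and 135.6 to 320 and 313 (1.60 ± 0.24). The IFIT proteins bind foreign RNA: Ifit1 rose by 1.17 ± 0.25, Ifit2 by 0.56 ± 0.14 and Ifit3 by 1.49 ± 0.32, while their copy Ifit3b just missed (1.22 ± 0.30, adjusted p = 0.0538). Mx1 and Mx2, dynamin-like antiviral GTPases, did not pass, at 1.48 ± 0.41 (adjusted p = 0.126) and 0.80 ± 0.30 (adjusted p = 0.508).

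Kinases, GTPases, sensors and regulators of the response were among the other risers. Eif2ak2, the RNA-activated kinase PKR that halts translation, went from 114.6 and 169.7 CPM to 235 and 231 (0.70 ± 0.12), and Samhd1, which depletes nucleotides, from 115.4 and 108.1 to 165 and 141 (0.45 ± 0.07). Among immunity-related GTPases Iigp1 rose by 1.97 ± 0.30, Ifi47 by 1.85 ± 0.29, Igtp by 1.22 ± 0.22, Irgm2 by 1.14 ± 0.22 and Irgm1 by 1.03 ± 0.17. Zbp1, a sensor of Z-form nucleic acid, went from 1.91 and 2.54 CPM to 10.3 and 9.27. Negative regulators were part of the rise: Usp18, which removes ISG15 and restrains the interferon receptor, went from 33.2 and 62.6 CPM to 119 and 137.9 (1.40 ± 0.20), and Dhx58 (LGP2), a regulator of RNA sensing, rose by 1.32 ± 0.23. The ubiquitin ligase gene Trim25 rose by 0.59 ± 0.14 and Trim21 by 0.70 ± 0.17.

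The guanylate-binding proteins and immunity-related GTPases attack the vacuoles of intracellular pathogens. Gbp2 stood at 36.5 and 39.1 CPM in EV and at 132 and 97.3 in RelA-dTAD, and its groups did not overlap (1.56 ± 0.22, adjusted p = 2.61e-04). Gbp6, Gbp9 (on no list, among the largest rises) and Tgtp2 were under 3 CPM in each EV library and between 5.56 and 10.8 in each RelA-dTAD library, with log2 fold changes of 2.24, 2.28 and 2.26. The factors that carry the interferon signal were among the risers: Stat2 by 0.81 ± 0.17, Irf9 by 0.48 ± 0.12 and Irf7, the amplifier of interferon production, by 1.49 ± 0.24. These genes, like Isg15, B2m and Tap1 below, were singled out after their values were seen. Irf1 (0.37 ± 0.16), Irf2 (0.19), Irf3 (-0.21), Irf5 (0.06) and Stat3 (-0.02) did not pass.

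The size of the interferon difference varied between the sets, which hold 1 library per group each. The EV libraries differed in 1 direction over nearly all of the list, and those of RelA-dTAD did not. Isg15, a ubiquitin-like modifier, was at 53.9 CPM in EV of set 1 and 153.9 in EV of set 2, against 286 and 373 in RelA-dTAD (1.69 ± 0.30, adjusted p = 0.00245). Of the 57 list members, 56 were lower in EV of set 1 than in EV of set 2, but only 28 were lower in RelA-dTAD of set 1 than of set 2. Among 28 NF-κB inhibitors, adaptors and kinases these counts were 13 in EV and 13 in RelA-dTAD. Among 23 MHC class I genes they were 22 in EV and 16 in RelA-dTAD. The share over all tested genes was not computed, so whether these counts depart from it is not known. The median difference within a set, on log2 of CPM + 1, was 1.62 in set 1 and 0.99 in set 2, against 0.02 and 0.00252 over all genes. In both sets 53 of the 57 members lay above 0, against 14 of the 28 NF-κB inhibitors, adaptors and kinases. Without EV of set 1, 23 members of the list rose; without RelA-dTAD of set 2, 30 did; without EV of set 2, 45 did. The plot of differences set by set shows the shift between sets.

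**Figure D2:**
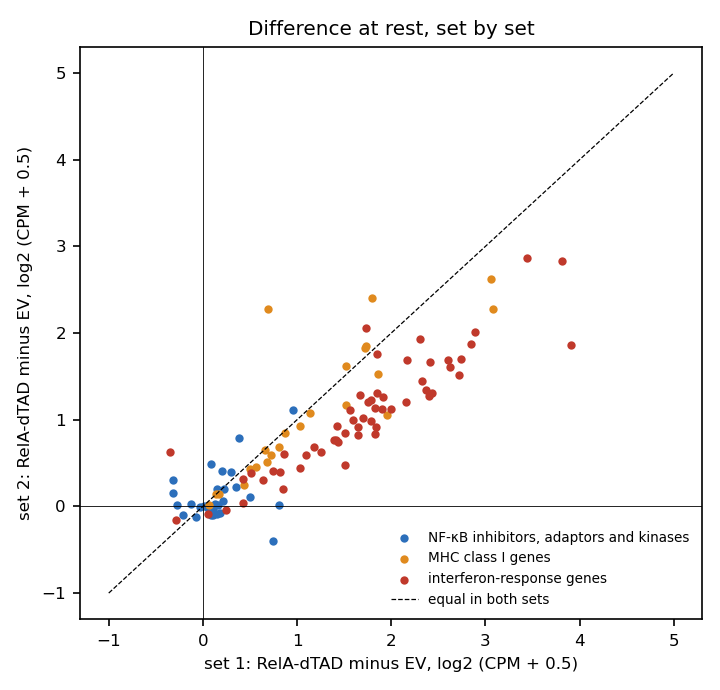
Each point is a gene of 1 of 3 lists, with RelA-dTAD minus EV at 0 h in set 1 on the horizontal axis and the same in set 2 on the vertical axis, both on log2 (CPM + 0.5). Of 57 interferon-response genes 54 lie below the line of equal values, that is, have the larger difference in set 1. So do 18 of 23 MHC class I genes and 16 of 28 NF-κB inhibitors, adaptors and kinases.

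Antigen presentation on MHC class I was the next group: 17 of 23 tested genes rose, none fell, and the median was 0.98 (0.86 in set 1 and 0.92 in set 2 on log2 of CPM + 1). The classical heavy chain gene H2-K1 was at 45.6 and 79.7 CPM in EV and at 151.7 and 284 in RelA-dTAD (1.79 ± 0.22, adjusted p = 9.09e-05). The other classical gene, H2-D1, went from 80.7 and 112.9 CPM to 233 and 347 (1.58 ± 0.21, adjusted p = 1.44e-04). In both genes each RelA-dTAD library was above each EV library, and set 2 was the higher set throughout. The light chain gene B2m went from 467.2 and 705 CPM to 956 and 1339, a log2 fold change of 0.98 ± 0.14. Psmb8 and Psmb9, subunits of the immunoproteasome that cuts the peptides, rose by 2.59 ± 0.36 and 2.17 ± 0.32, from 1.36 and 5.55 CPM to 15.3 and 28.8 in the case of Psmb8; the Psmb9 call is lost without RelA-dTAD of set 2 (adjusted p = 0.0851). Tap1 and Tap2, which form the peptide transporter in the ER membrane, rose by 1.66 ± 0.25 and 1.31 ± 0.23, Tapbp (tapasin), which bridges it to class I, by 0.66 ± 0.12, Erap1, the peptide-trimming protease, by 0.59 ± 0.10, and Nlrc5, the transactivator of class I genes, by 1.37 ± 0.29. Nonclassical heavy chains rose too, H2-Q4 by 2.75 ± 0.38, H2-T23 by 1.14 ± 0.21, H2-T22 by 0.87 ± 0.13 and H2-M3 by 0.79 ± 0.19. The general ER chaperone genes Calr (0.16), Canx (0.04) and Pdia3 (0.14) did not pass, nor did Psme1 (0.33) or Tapbpl (0.52). Without the pairing by set 6 of the 23 rose, and with 1 library left out at a time 9 to 13 did (9 without RelA-dTAD of set 2, 10 without EV of set 1).

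The letters upstream of some of these genes are shown because they bear on which factor sites lie near the genes that rose. They are RefSeq promoter windows (GRCm38.p6, 250 bases before to 50 after a gene's start), cut to the part before the start that holds the matches. Capitals mark matches on either strand to the κB consensus or to the ISRE core GAAANNGAAA.
H2-K1, chr17:34000428-34000478, minus strand: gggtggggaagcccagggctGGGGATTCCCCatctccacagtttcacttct
H2-Q4, chr17:35379423-35379473, plus strand: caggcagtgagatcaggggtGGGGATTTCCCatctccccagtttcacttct
B2m, chr2:122147528-122147590, plus strand: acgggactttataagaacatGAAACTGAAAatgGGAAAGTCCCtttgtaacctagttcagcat
Cxcl10, chr5:92348963-92349122, minus strand: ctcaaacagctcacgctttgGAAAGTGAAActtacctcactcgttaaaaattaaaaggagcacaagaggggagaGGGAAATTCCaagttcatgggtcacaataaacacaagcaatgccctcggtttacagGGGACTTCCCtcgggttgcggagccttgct
Isg15, chr4:156200855-156200916, minus strand: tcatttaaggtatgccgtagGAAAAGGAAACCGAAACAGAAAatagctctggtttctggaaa
Oas1a, chr5:120907526-120907565, minus strand: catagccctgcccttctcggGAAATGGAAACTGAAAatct
Nfkbia, chr12:55492648-55492696, minus strand: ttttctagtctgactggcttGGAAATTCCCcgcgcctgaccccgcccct
H2-K1 and H2-Q4 show the κB match of the class I promoter, B2m an ISRE core followed after a few bases by a κB match, and Cxcl10 an ISRE core and separate κB matches. Isg15 and Oas1a show overlapping ISRE cores with no κB match, and Nfkbia, which did not pass, a κB match close to the start.

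Promoter windows were found for 124 of the 162 genes that rose. Of these 50 (40.3%) held the ISRE core, against 3.78% of the 10435 tested genes with a window and 3.99% of all 27025 genes with a window. A gene counted if any of its windows matched, so genes with more start sites had more chances to match. The κB consensus was in 19 (15.3%), against 6.57% and 5.14%, and both were in 7. Among the 37 interferon-response risers with a window, 22 (59.5%) held the ISRE core and 3 the κB consensus. All 43 tested genes of that list with a window gave 24 (55.8%) and 5. Among the 15 MHC class I risers, 4 held the ISRE core and 7 (46.7%) the κB consensus. All 20 tested genes of that list gave 5 and 8 (40%). The shares of the risers were thus close to those of their whole lists. Of the 72 risers with a window on neither list, 24 (33.3%) held the ISRE core and 9 (12.5%) the κB consensus. Only exact matches were counted, so a window without a match may still hold a variant of the site. In H2-K1 and H2-Q4 above, the letters tttcacttct after the κB match resemble the ISRE core on the other strand without matching it. Of the 24 NF-κB inhibitors, adaptors and kinases with a window, 10 held the κB consensus and 1 the ISRE core. None of them rose, where 1.19% of all tested genes did. Letters that match are a description of the window and not evidence of binding.

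NF-κB feedback genes showed no such rise. None of 28 inhibitors, adaptors and kinases of the pathway passed in either direction, and their median was 0.05. Over all genes tested 1.19% were higher and 0.0585% lower, so none of 28 is near that share. With full-length RelA, 3 of the 28 were higher than in EV, against 1.08% of all genes tested. Their median there was 0.16, against 0.01 over all genes. In both sets 14 of the 28 lay above 0 in RelA-dTAD minus EV. Tnfaip2 was among these, at 0.96 in set 1 and 1.11 in set 2 on log2 of CPM + 0.5. Nfkbia, which encodes IκBα, was at 29.1 and 26.2 CPM in EV, 32.3 and 30.2 in RelA-dTAD, and 50.3 and 47.6 in RelA-WT. The RelA-dTAD libraries thus sat just above EV (0.18 ± 0.18, adjusted p = 1.00) and below both RelA-WT libraries. Tnfaip3, which encodes the deubiquitinase A20, was at 6.94 and 6.65 CPM in EV, 12.5 and 6.73 in RelA-dTAD (0.35 ± 0.36, adjusted p = 1.00) and 26.3 and 17.9 in RelA-WT. Both stood higher with full-length RelA than in EV: the Nfkbia difference was 0.83 ± 0.17 (adjusted p = 0.0126) and that of Tnfaip3 1.64 ± 0.32 (adjusted p = 0.00933). Both calls are lost without EV of set 1 (adjusted p = 0.112 and 0.175) and without EV of set 2 (0.239 and 0.0820). The direct difference between RelA-dTAD and RelA-WT did not pass in either (Nfkbia -0.65, adjusted p = 0.343; Tnfaip3 -1.29, adjusted p = 0.246); DESeq2 gave adjusted p = 0.0193 and 4.05e-05. The remaining subunit genes did not pass: Nfkb1 (0.19 ± 0.11), Nfkb2 (0.22 ± 0.09), Relb (0.45 ± 0.20) and Rel (-0.23 ± 0.14).

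Chemokine genes divided. Cxcl10, a ligand of the T cell receptor CXCR3, rose from 15.9 and 19.2 CPM to 45.1 and 52.6 (1.47 ± 0.20, adjusted p = 2.19e-04). Cxcl9, another CXCR3 ligand, rose from 0.68 and 0.40 CPM to 3.55 and 2.02 (2.26 ± 0.43, adjusted p = 0.00140), on 10 reads in EV, and its call is lost without EV of set 2 (1.91, adjusted p = 0.185). Ccl2, the monocyte chemoattractant, was at 5.71 and 5.15 CPM in EV, 29.6 and 18.1 in RelA-dTAD and 88.8 and 46.4 in RelA-WT. RelA-dTAD thus lay between the other groups without overlap, above EV by 2.05 ± 0.38 (adjusted p = 0.00444) and below RelA-WT by a log2 difference of -1.49 ± 0.27 (adjusted p = 0.0402). The first of these calls is lost without EV of set 1 (adjusted p = 0.107) or EV of set 2 (0.0603) and the second without either RelA-dTAD library (0.239 and 1.00). Both are lost in the fit of the 8 libraries at 0 h (0.437 and 0.588). Cxcl15 fell (-0.76 ± 0.18), and 3 of the 22 chemokine genes tested rose in all. The median of the list was 0.65, or 0.08 with the 4 genes that had no read in 1 group held at their bound.

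Several other NF-κB targets had more CPM in RelA-dTAD in both sets without passing. Ccl7, a monocyte chemokine beside Ccl2, was at 5.44 and 3.01 CPM in EV and 15.6 and 11.02 in RelA-dTAD (1.68 ± 0.42, adjusted p = 0.0606; DESeq2 1.85e-05). Vcam1, the adhesion receptor for leukocytes, was at 128 and 104.6 CPM and at 184 and 170.6 (0.61 ± 0.17, adjusted p = 0.0997; DESeq2 0.00779). Ccl5 went from 11.2 and 8.40 CPM to 16.8 and 15.3 (0.74 ± 0.26, adjusted p = 0.374). In a fit of only the 4 libraries Ccl7, Vcam1, Ccl5 and Irf1 passed, with adjusted p = 3.18e-05, 6.23e-05, 0.00766 and 0.0308, while the same fit lost the calls of Oas1a (0.635), Ifih1 (0.190) and Ddx58 (0.160). Cxcl1 (0.08), Cx3cl1 (-0.04), Tlr2 (0.09), Sod2 (0.17), Csf1 (0.27), Birc3 (0.32), Nfkbie (-0.02) and Icam1 (0.69 ± 0.67) did not pass. Il6 had 3 reads in EV and 8 in RelA-dTAD, a ratio of 2.06 (95% interval 0.496 to 12.1, exact conditional binomial, counting error only).

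Of 33 receptors and sensors, 3 rose, and all 3 detect viral RNA. Ifih1 (MDA5) rose from 46.5 and 70.3 CPM to 133 and 124.7 (1.11 ± 0.16, adjusted p = 2.19e-04). Tlr3 rose from 10.9 and 15.8 CPM to 28.6 and 32.9 (1.17 ± 0.19), and Ddx58 (RIG-I) from 134.7 and 191 to 292 and 280.5 (0.80 ± 0.13). Among 30 cytokine and growth factor genes only Fgf7, a growth factor for epithelium, rose (0.55 ± 0.11, adjusted p = 0.00187). In the list of 23 adhesion and complement genes Serpina3g, a serpin, rose (0.51 ± 0.11), and among 25 genes of glycolysis and hypoxia Higd1a, a mitochondrial protein gene, did (0.62 ± 0.16). With a library left out the Higd1a call was lost in all 4 fits, that of Serpina3g in all but the fit without EV of set 1, and that of Fgf7 without EV of set 2 (adjusted p = 0.120) or RelA-dTAD of set 1 (0.0507). None passed among 39 immediate early genes, 26 proteases and inhibitors, 45 matrix genes, 28 survival and redox genes, 23 p53 targets, 44 cell cycle genes, 25 cholesterol genes, 20 genes of the unfolded protein response, 31 Hox genes, 17 imprinted genes or 4 sex-linked genes. The medians of these 11 lists lay between -0.02 and 0.14. Over all genes tested 1.19% rose and 0.0585% fell, the shares to set beside the counts of these lists.

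The 8 falls had a median log2 fold change of -0.56. Gpm6a, a neuronal membrane glycoprotein gene, was at 4.08 and 17.4 CPM in EV and 2.62 and 9.89 in RelA-dTAD (-0.82 ± 0.20, adjusted p = 0.0215). Here the sets differed more than the groups, and the EV and RelA-dTAD ranges overlap although both sets moved down. Cpm (-0.56 ± 0.14), Rpl7a (-0.43 ± 0.11), Pamr1 (-0.42 ± 0.11) and Ccdc141 (-0.40 ± 0.10) fell too, as did Cxcl15. Rab3b was at 3.67 and 3.64 CPM in EV and 1.08 and 1.55 in RelA-dTAD (-1.35 ± 0.29, adjusted p = 0.00476), and is named after its values were seen. With a library left out 1 to 4 genes were lower; Cpm, Pamr1 and Ccdc141 lost their call in each of these 4 fits, and Gpm6a, Cxcl15 and Rpl7a in 3 of them.

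The plot of levels by library sets these genes beside RelA-WT. In the same fit RelA-WT differed from EV in 147 genes that were higher (1.08%) and 8 that were lower (0.0585%), with 37 of 57 interferon-response genes (median 1.16) and 15 of 23 MHC class I genes (median 0.86) higher. These values share the EV libraries with the comparison above, so no overlap of the gene sets is given. A comparison that shares no library takes the genes at least 2-fold higher in RelA-WT than in EV in 1 set and reads RelA-dTAD against EV in the other. The 112 genes picked in set 1, Rela left out, had a median log2 difference of 1.04 between RelA-dTAD and EV in set 2, and 108 of them were above 0 (all 10804 genes of at least 5 CPM: median 0.00361, 51.5% above 0). The 49 genes picked in set 2 had a median of 1.89 in set 1, with 46 above 0 (all 10837 genes: 0.02 and 55.4%). That median was 1.16 for genes picked at 1.5-fold and 0.99 with a minimum of 1 CPM. Genes lower in RelA-WT were few, 6 picked in set 1 and 2 in set 2, with medians of -0.21 and -0.60 in the other set.

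**Figure D3:**
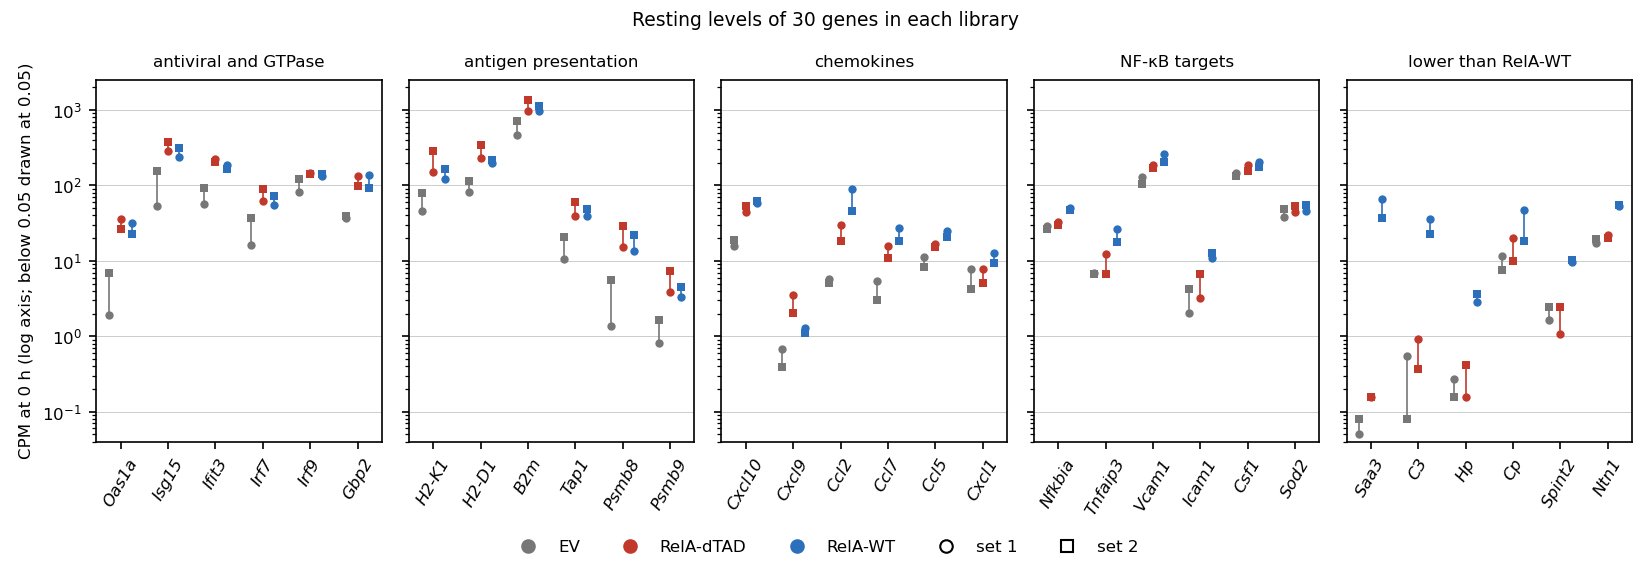
Each symbol is the level of a gene in 1 resting library (CPM, log axis), by construct (EV, RelA-dTAD, RelA-WT) and set (circle or square), for 30 genes in 5 panels. In the first panel Oas1a is at 35.6 and 26.1 CPM in RelA-dTAD against 31.7 and 22.6 in RelA-WT. Genes of the last panel were picked for being lower than in RelA-WT, with C3 at 0.93 and 0.36 CPM against 35.3 and 23.02. In the antigen presentation panel H2-K1 of set 2 is at 284 CPM in RelA-dTAD and 165 in RelA-WT. In the last panel Cp of set 1 is at 11.6 CPM in EV, 20.2 in RelA-dTAD and 46.9 in RelA-WT.

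Tested directly, RelA-dTAD and RelA-WT at rest differed in 2 genes that were higher with RelA-dTAD (0.0146%) and 7 that were lower (0.0512%), all 9 of them named here after their values were seen. The lower genes include 3 of the acute phase and complement system. C3, the central complement component, was at 35.3 and 23.02 CPM in RelA-WT, 0.93 and 0.36 in RelA-dTAD and 0.54 and 0.08 in EV. RelA-dTAD stayed near the EV level, below RelA-WT by a log2 difference of -5.73 ± 0.41 (adjusted p = 2.54e-08). Saa3, an acute phase serum amyloid, had 891 reads in the RelA-WT libraries, 4 in RelA-dTAD and 1 in EV, which makes RelA-WT 302-fold above RelA-dTAD (95% interval 117 to 1109, counting error only). Haptoglobin, Hp, differed by -3.29 ± 0.52 (adjusted p = 8.39e-04) and Cp, the copper carrier ceruloplasmin, by -1.07 ± 0.18 (adjusted p = 0.00272). Ntn1, the guidance factor netrin-1, was at 17.0 and 19.3 CPM in EV, 21.9 and 20.2 in RelA-dTAD and 53.6 and 55.7 in RelA-WT (-1.40 ± 0.13, adjusted p = 2.54e-08). Spint2, a protease inhibitor gene, was at 1.63 and 2.46 CPM in EV, 1.08 and 2.43 in RelA-dTAD and 9.71 and 10.3 in RelA-WT (-2.34 ± 0.24, adjusted p = 1.21e-07), and Ccl2 is given above. Higher with RelA-dTAD were C1qtnf3 (0.67 ± 0.11) and Pgm5 (0.54 ± 0.11). DESeq2 called 15 genes lower, and fits without 1 RelA-dTAD library called 3 to 6. Without RelA-dTAD of set 2 the calls of Saa3 (adjusted p = 0.794), Hp (0.849), Cp (0.608) and C1qtnf3 (0.212) were lost, and that of Pgm5 without either RelA-dTAD library.

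None of the 57 interferon-response or 23 MHC class I genes differed between RelA-dTAD and RelA-WT, with medians of 0.18 and 0.13 toward RelA-dTAD. For Oas1a the difference was 0.18 ± 0.25, for Isg15 0.27 ± 0.28, for Gbp2 -0.01 ± 0.20, for Cxcl10 -0.29 ± 0.18 and for H2-K1 0.56 ± 0.21, and a p that misses the threshold does not show equal levels.

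Other constructs show which forms of RelA came with these levels, as differences from EV of the same set with 1 library each and no test. In set 1 the median over interferon-response genes was 1.78 with RelA-dTAD, 1.57 with full-length RelA and 1.51 with RelA-dTA1, against 0.49 with RelA-dCterm and 0.05 with RelA-DB. MHC class I medians were 1.02, 1.05, 1.08, 0.17 and 0.03 in that order. RelA-DB and RelA-dCterm are given here by their label names, whose changes the labels do not spell out, and these libraries held 659 and 534 CPM of Rela, below the 1134 of RelA-dTAD on the same scale. H2-K1 stood at 153 CPM in RelA-dTAD, 44.8 in RelA-DB and 46.3 in EV. In set 2 RelA-dTAD had medians of 1.08 and 0.93 on these lists, RelA-dTA1 0.84 and 0.92, RelA-WT 0.83 and 0.68, and the 5 constructs with TA2 changes lay between 0.38 and 0.63 and between 0.33 and 0.56.

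**Figure D4:**
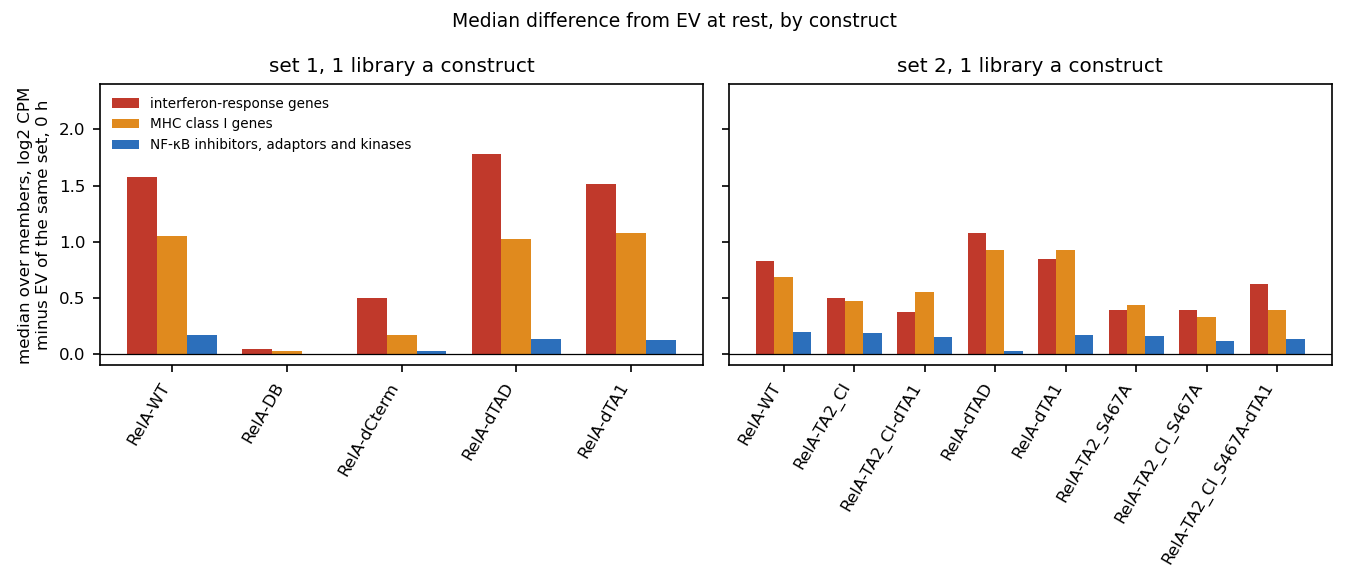
Bars give, for each construct at 0 h, the median over list members of log2 CPM minus EV of the same set, in set 1 (left) and set 2 (right), with 1 library per bar and no error. RelA-dTAD reaches 1.78 and 1.08 for interferon-response genes, RelA-DB 0.05, and NF-κB inhibitors, adaptors and kinases reach at most 0.19 in any construct shown.

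The resting difference was followed through TNF to see whether it lasted. Against EV of the same time, RelA-dTAD had 168 genes higher (1.23%) and 35 lower (0.256%) at 0.5 h, and 137 (1.00%) and 33 (0.241%) at 1 h. It had 255 (1.87%) and 49 (0.359%) at 3 h, and 527 (3.86%) and 220 (1.61%) at 8 h. Of 57 interferon-response genes 50, 35, 52 and 50 were higher at 0.5, 1, 3 and 8 h, with medians of 1.56, 1.18, 1.42 and 1.71, and of 23 MHC class I genes 15, 17, 19 and 20. Of the 28 NF-κB inhibitors, adaptors and kinases none passed at 0.5 or 1 h, 6 were higher at 3 h, and 4 were higher and 3 lower at 8 h. H2-K1 in RelA-dTAD went from 151.7 and 284 CPM at rest to 279 and 509 at 8 h, and in EV from 45.6 and 79.7 to 65.0 and 109.8, with a difference of 1.79 at rest and 2.16 at 8 h. Oas1a differed by 2.42 to 3.02 at the 4 TNF times, with 2.59 at rest. In some named genes the estimate at a TNF time lay apart from that at rest, and single times were not tested against 0 h. Serpina3g was at 0.51 at rest and -0.32 ± 0.09 at 8 h. Higd1a was at 0.62 at rest and at 0.19, 0.40, 0.09 and 0.21 at 0.5, 1, 3 and 8 h. Rpl7a was at -0.43 at rest and 0.09 at 8 h, and Cxcl9 at 2.26 and 5.83. Nfkbia reached 0.62 ± 0.16 (adjusted p = 0.0484) at 3 h, and Tnfaip3 1.28 ± 0.30 (adjusted p = 0.0232).

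The test of whether the mean difference over the TNF times departs from that at 0 h called no gene higher (0.00%) and no gene lower (0.00%) with edgeR, and none with DESeq2. At an unadjusted p under 0.05 there were 357 genes with edgeR and 227 with DESeq2, and the smallest adjusted p was 1.00. Without a filter on low counts 15 genes were higher and 2 lower. As a mean over the TNF times, this test dilutes a change that comes only at some of them. The plot of list medians by time gives the course.

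**Figure D5:**
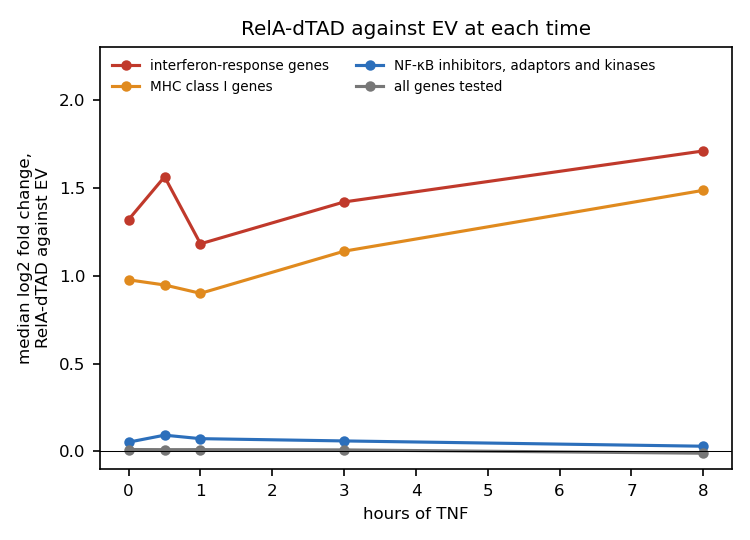
Lines give the median log2 fold change of RelA-dTAD against EV (vertical axis) at 0, 0.5, 1, 3 and 8 h of TNF (horizontal axis) over 3 gene lists and all genes tested. The interferon-response line starts at 1.32 and ends at 1.71, the MHC class I line goes from 0.98 to 1.49, and the line of NF-κB inhibitors, adaptors and kinases stays within 0.03 to 0.09, although 6 of its 28 genes were higher at 3 h.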

How the data were processed

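Polyadenylated RNA of 75 libraries was measured by single-end 50-base sequencing of stranded libraries with 12 PCR cycles, per the labels' protocols. The deposited values are read counts for each gene. Tools named in the submitters' processing notes are cutadapt 1.9.1, STAR, featureCounts 1.5.0, mm10 and DESeq2; which strand option the counter ran with is not given in the sources used here, so overlapping and antisense genes are uncertain. The tables list 45706 genes, 98.77% of them with a symbol. CPM and log2 values were computed here from the deposited counts.

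The 40 libraries of the 4 constructs with 2 libraries per time (EV, RelA-WT, RelA-dTA1, RelA-dTAD) entered 1 fit, so that the 2 against 2 libraries borrow the spread of the others: edgeR 4.0.16 under R 4.3.3, TMM scaling, filterByExpr (13665 genes), 1 mean per construct and time, the set as block, robust quasi-likelihood test, 19 residual degrees of freedom, common dispersion 0.00381. An SE is the log2 fold change over the root of F. The labels number replicates by set, and deviations of same-numbered libraries correlated at 0.357 to 0.668 in 190 pairs of groups (0.62 for RelA-dTAD with EV at 0 h), so libraries were paired by number. In counts simulated for RelA-dTAD against EV at 0 h on 13366 genes, 59.1% of 1.5-fold, 82.1% of 2-fold and 98.5% of 4-fold changes were recovered. These were 39, 55 and 65 genes, beside 17 unchanged genes called. The dispersion of the simulation was assumed, and no construct differed between sets in its own way. The rates therefore may not hold for the data. Values of other constructs are CPM scaled over all 75 libraries. A floor is 3 reads over a group.

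Named genes were a set list of NF-κB genes and targets, the 12 largest rises and 10 largest falls (7 qualified) of at least 5 CPM with a gene name, and up to 4 members per list. Members and lists were chosen with earlier results of these data known. Alternatives were no block, DESeq2 1.42.0, its size factors, other filters, other libraries in the fit and leaving out each library. Gene positions (mm10) come from the annotation supplied; 58.0% of identifiers carry the version found there. Promoter windows are from RefSeq, GRCm38.p6. Some items are not reported here.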

Additional observations from a re-analysis of the deposited data

How the results depend on the processing

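With 2 libraries a group and 6226356 reads in the smallest of the 4, genes of a few reads have wide intervals. With a library left out, the lone library of its group is assumed to vary like the other groups; RelA-WT libraries were not left out. Interferon-response genes numbered 23 to 52 higher and MHC class I genes 6 to 20 over all alternatives run, and the number of RelA-dTAD genes higher than EV was 149 to 210 under the alternatives other than the pairing and the left-out libraries, of which 154 with no filter and 127 in the fit of only 4 libraries are among the 162. The causes of the shifts below were not tested.

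Without the set as block, that is without the pairing, RelA-dTAD against EV gave 87 genes higher (86 of them among the 162) and 1 lower, RelA-WT against EV 77 and 0, and RelA-dTAD against RelA-WT 0 and 4. MHC class I then had 6 members higher, and cytokines 0, adhesion and complement 0, glycolysis 0 and chemokines 0 lower. H2-K1, H2-Q4, Psmb8, Gbp6, Ifi27l2a, Tlr3, Fgf7, Serpina3g, Higd1a, Gpm6a, Cxcl15, Cpm, Rpl7a, Pamr1 and Ccdc141 lost their call against EV, and Ccl2, Cp, Hp, C1qtnf3 and Pgm5 theirs against RelA-WT.

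With no filter on low counts, genes lower numbered 38 in RelA-dTAD against EV; RelA-WT against EV had 246 higher and 56 lower, RelA-dTAD against RelA-WT 21 and 35, and the test of TNF times against 0 h 15 and 2. List members higher were then 2 subunits, 1 feedback gene, 5 chemokines, 3 of adhesion and complement and 1 each of proteases, matrix, survival and cell cycle, with 2 matrix and 2 imprinted genes lower. In the fit of only the 4 libraries 36 genes were lower, with higher members 31 interferon-response, 5 chemokines (0 lower), 3 of adhesion and complement, 1 receptor, and 1 each of feedback, proteases, survival and cell cycle, and 2 matrix and 1 imprinted gene lower. In the fit of the 8 libraries at 0 h, 40 genes were lower in RelA-dTAD against EV, 64 in RelA-WT against EV, and 16 higher and 27 lower in RelA-dTAD against RelA-WT; adhesion and complement had 2 members higher, matrix, survival and cell cycle 1 each, and matrix and imprinted genes 1 lower each. DESeq2 gave 15 genes lower in RelA-dTAD against RelA-WT, 2 of adhesion and complement and 0 of glycolysis higher, and 1 matrix gene lower, as did its size factors, the stricter filter and the fit of all 75 libraries.

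With 1 library left out, genes higher numbered 77 to 124 and lower 1 to 4 in RelA-dTAD against EV, 40 to 104 and 2 to 6 in RelA-WT against EV, and 0 to 1 and 3 to 6 in RelA-dTAD against RelA-WT. Higher members were 23 to 45 interferon-response, 9 to 13 MHC class I, 1 to 3 chemokine (0 to 1 lower), 3 receptor, 0 to 1 cytokine, 0 to 1 adhesion and complement and 0 glycolysis genes. The test of TNF times against 0 h stayed at 0.

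For genes picked in set 2 and read in set 1, the median of the higher genes was 1.16 with a 1.5-fold limit and 0.99 with 1 CPM, and that of the lower genes -0.11, -0.17 and, with 20 CPM, -1.11. No gene picked as lower in set 1 was left at 20 CPM.

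Of the named genes, 25 values changed sign, none of them called. With 1 library left out, RelA-dTAD against EV ran from -0.31 to 0.53 for Nfkbie, -0.21 to 0.34 for Cxcl1, -0.15 to 0.13 for Cx3cl1, -0.068 to 0.31 for Tlr2, -0.029 to 0.17 for Trp53, -0.71 to 0.029 for Spint2 and -0.14 to 1.21 for Hp. RelA-WT against EV ran from -0.10 to 0.22 for Rel, -0.00738 to 0.45 for Birc3, -0.10 to 0.17 for Cx3cl1 and -0.22 to 1.22 for Il6. RelA-dTAD against RelA-WT ran from -0.26 to 0.078 for Relb, -0.15 to 0.017 for Nfkb1 and -0.093 to 0.086 for Gbp2. Nfkbie against EV was 0.062 without the block and 0.098 with DESeq2. Cx3cl1 in RelA-WT against EV was -0.00616 with the stricter filter, -0.030 with 8 libraries and -0.00909 with 75. Nfkb2 in RelA-dTAD against RelA-WT was -0.000424 with DESeq2 and -0.000522 with its size factors.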

Other observations

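Of the 162 genes that rose at rest, 87 were on none of the lists; those named in this part were chosen after their values were seen. Sp100, a nuclear body protein gene, went from 1.09 and 1.27 CPM in EV (set 1, set 2) to 6.02 and 8.02 in RelA-dTAD (log2 fold change 2.59 ± 0.34). Ifitm3, which blocks virus entry, went from 115.4 and 151 CPM to 225 and 238 (0.79 ± 0.15), and Adar, the RNA-editing deaminase, from 84.5 and 124.5 to 176 and 175 (0.74 ± 0.11). Casp4, the sensor of cytosolic lipopolysaccharide, rose by 1.56 ± 0.22 and Mlkl, the effector of necroptosis, by 0.93 ± 0.12. Lgals9, a galectin, rose by 1.27 ± 0.19.

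Agrn, which encodes the matrix proteoglycan agrin, went from 77.6 and 191 CPM to 285 and 477 (1.54 ± 0.18, adjusted p = 3.98e-05, edgeR's quasi-likelihood test), with every RelA-dTAD library above every EV library. The extracellular superoxide dismutase gene Sod3 rose by 0.74 ± 0.17, the lipocalin Apod by 1.11 ± 0.25 and Nampt, of NAD synthesis, by 0.36 ± 0.09. Pax5, a B cell transcription factor, had 0 and 0.08 CPM in EV and 2.32 and 1.09 in RelA-dTAD.

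The interferon genes themselves were near 0. Of 21 in the table, 19 had no read in the 4 libraries, and EV held 1 read of these genes in each set against 2 and 3 in RelA-dTAD. Receptor genes were present, with Ifnar1 at 148.8 and 130.1 CPM in EV and 159.7 and 136.7 in RelA-dTAD.

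Rela stood at 3963 and 6677 CPM in RelA-dTAD at 8 h of TNF, against 1124 and 1786 at rest and 1493 and 1745 in RelA-WT at 8 h; 8 h against 0 h within RelA-dTAD was not tested.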
